A study of Drosophila melanogaster with 37 samples.

Results

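The regions described here are the weak calls in the distal 7 Mb of chromosome arm 3L of Drosophila melanogaster, in ChIP-seq peak lists of CLAMP, GAF and MSL3. They were selected on measured values: a region had to end at or before 7 Mb of 3L (build dm3, position 1 at the arm's first base) and to have a −log10 q below 1.301, which is a q above 0.05. The q is the value the caller listed for the region, and for a narrow peak it estimates the false discovery rate in that library. A narrow weak call was thus listed although it did not pass a rate of 0.05. MSL3 lists hold broad regions, and how q was set for them is not given in the sources used here. For MSL3, weak therefore means only a listed q above 0.05. The rule found 14801 regions among the 264754 regions of the 25 lists. Of these, 2333 came from CLAMP lists, 939 from GAF lists and 11529 from MSL3 lists. Another 23859 weak calls lay on the rest of 3L, so the distal segment held 38.3% of the 38660 weak calls of the arm. The last listed region of 3L ends at 24.5 Mb, which makes the segment 28.5% of the arm's length and 5.82% of the summed length of 6 arms (X, 2L, 2R, 3L, 3R and 4).

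The cells were S2, a male embryonic line that is known to be aneuploid, and all had received 4.5 ug/mL of dsRNA. The dsRNA was against GFP, which serves as the control, against GAF (the product of trl), or against CLAMP. Peak lists after GFP, GAF and CLAMP RNAi numbered 3, 2 and 2 for the CLAMP antibody. They numbered 3, 2 and 3 for GAF, and 4, 3 and 3 for MSL3. The other 12 samples are inputs, which have no peak list and were not analysed here. The lists do not measure how much of either protein was left after RNAi. The labels do not say that replicates came from separate cultures, so each p-value measures only the spread between these libraries.

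CLAMP and GAF are sequence-specific proteins that recognise GA-rich DNA, GAF mainly at promoters and CLAMP also at the sites where the MSL complex first binds. MSL3 is a chromodomain subunit of that complex, which in male flies coats the X chromosome and raises its transcription. Arm 3L is an autosomal arm, and MSL3 is best known for its binding to the X.

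Weak calls were a different share of the lists of each antibody, which sets how many members a list could give. On the 6 arms, 53.6% of all CLAMP calls, 17.2% of all GAF calls and 99.5% of all MSL3 calls were weak. In the distal segment, weak calls made up 35.1% to 86.4% of a CLAMP list's calls, 11.4% to 37.1% of a GAF list's and 96.8% to 100% of an MSL3 list's. Because the rule used q, these shares are a description. MSL3 lists hold broad regions and the other lists narrow peaks, so q may not be the same measure in both. Nearest to the limit of q, the members with the highest −log10 q had 1.298 (CLAMP, GFP RNAi replicate 2), 1.298 (GAF, GAF RNAi replicate 2) and 1.301 (MSL3, GAF RNAi replicate 1; 1.30083 in full). The regions just outside had 1.303, 1.306 and 1.301 (1.30126 in full). The last members before the boundary ended at 6998345, 6995425 and 6995227, and the first weak calls after it ended at 7001279, 7001406 and 7001649, all from MSL3 lists. No weak call lay across the boundary.

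In sums over the lists of each antibody, weak calls were dense from the tip to about 6.4 Mb and thinned there, short of the 7 Mb boundary. Summed over CLAMP lists, the 13 windows of 0.5 Mb up to 6.5 Mb held 91 to 271 weak calls each, with a mean of 178. The window from 6.5 to 7 Mb held 22, and the 18 windows from 7 to 16 Mb held 24.5 on average. From 16 to 23 Mb the mean rose again, to 94.6 per window. GAF lists showed the same order on a smaller scale, with means of 69.5, 35, 37.1 and 56.9 weak calls per window over these 4 stretches. MSL3 lists had means of 847, 516, 459 and 825. In these sums the distal stretch and the stretch from 16 to 23 Mb were thus nearly equal in MSL3 lists, whereas in CLAMP lists the distal stretch was the denser of them. With libraries weighted equally, an MSL3 window up to 6.5 Mb held 3.85% of a library's 3L weak calls on average. From 16 to 23 Mb it held 2.25%. The values were 3.25% and 2.51% in CLAMP lists and 2.79% and 2.36% in GAF lists. So weighted, the gap was larger in MSL3 than in CLAMP lists.

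**Figure D1:**
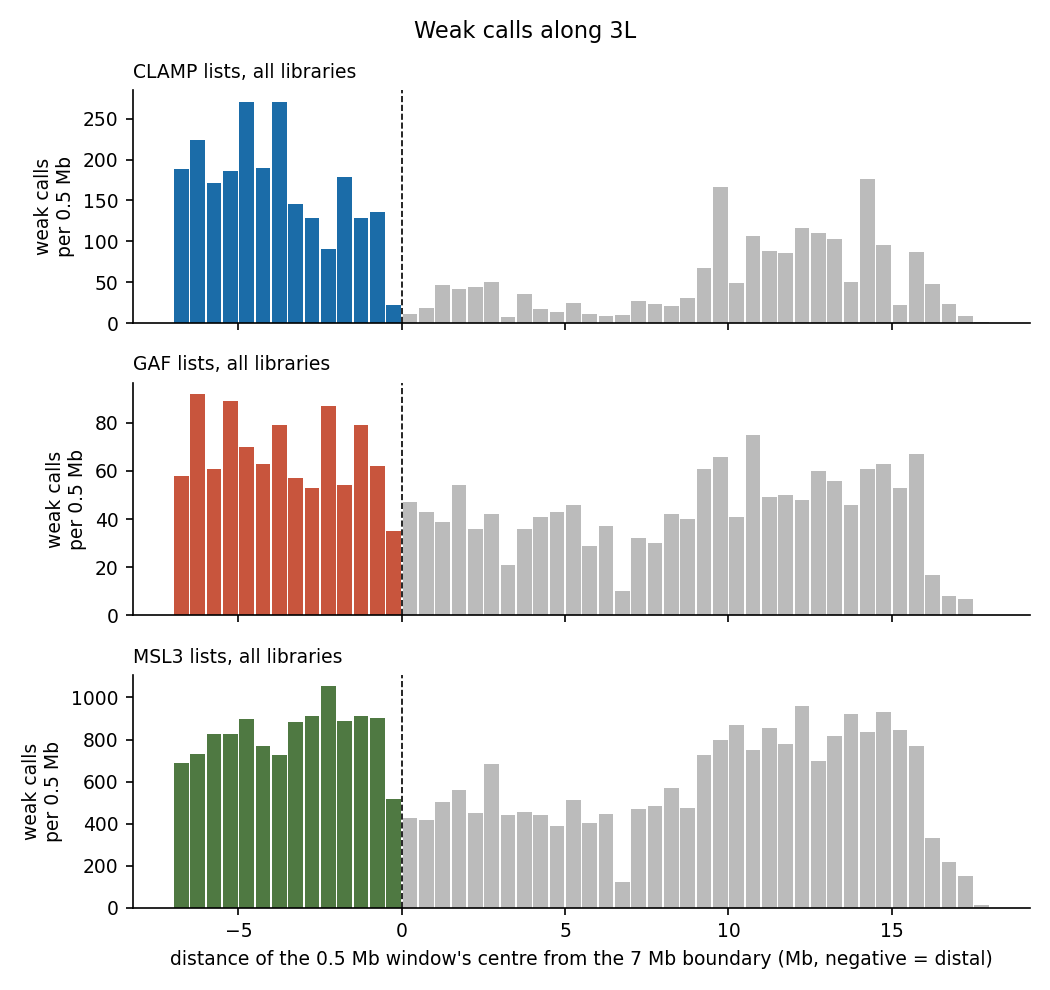
Number of weak calls per 0.5 Mb window of 3L (y axis), summed over the libraries of each antibody, against the distance of the window's centre from the 7 Mb boundary in Mb (x axis, negative values distal). Coloured bars are members and grey bars are the rest of the arm; in all 3 panels the last coloured bar, with 22, 35 and 516 calls, is lower than each of the 13 before it.

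Between 5 and 9 Mb, the position with the steepest fall from the 0.5 Mb before it to the 0.5 Mb after it was 6.36 Mb in CLAMP lists, 6.44 Mb in GAF lists and 6.40 Mb in MSL3 lists. Across these positions the count fell from 181 to 20 in CLAMP lists, from 67 to 27 in GAF lists and from 988 to 522 in MSL3 lists. At 7 Mb itself the counts on the 2 sides were 22 and 11, 35 and 47, and 516 and 428. The window from 6.5 to 7 Mb therefore added only 573 members, 3.87% of all. The label of 7 Mb is wider than the dense stretch, which ended near 6.4 Mb for all 3 antibodies in counts summed over their lists. The CLAMP lists under CLAMP RNAi, with 39 members, did not show this drop. They held 0 members from 6 to 6.5 Mb and 6 from 6.5 to 7 Mb.

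Set beside the other large autosomal arms, and with lists summed, the segment was denser in weak calls of CLAMP and GAF and about as dense as 3R in those of MSL3. CLAMP lists together had 333 weak calls per Mb in the distal segment, 105 on the rest of 3L, 231 on 2L, 162 on 2R, 155 on 3R and 46.4 on X. GAF lists had 134 in the segment, 85.3 on the rest of 3L and 109 to 123 on the other 3 large autosomal arms. MSL3 lists had 1647 in the segment, 1170 on the rest of 3L, 1492 to 1642 on those 3 arms and 502 on X. Among the 237 full windows of 0.5 Mb of all arms, the window with the most weak calls lay in the distal segment for GAF (92 calls, 0.5 to 1 Mb) and for MSL3 (1053 calls, 4.5 to 5 Mb). For CLAMP it lay on 2L (312 calls), and the best segment window ranked 4. Of the CLAMP members, 80.5% came from 2 lists, and the other arms were not counted without these lists. The rule used position and q, so these densities and ranks are a description with no test.

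Most CLAMP members came from a pair of libraries. GFP RNAi replicate 4 held 1037 members and GAF RNAi replicate 2 held 842, together 80.5% of the CLAMP members. The other 5 CLAMP lists held 454 members, and in them the segment's density was 1.54 times that of the rest of the arm, against 4.25 times in the pair. The drop near 6.4 Mb was present without the pair too in the sum of these 5 lists, with 33.9 weak calls per window up to 6.5 Mb and 9.17 from 7 to 16 Mb. In those 5 lists, however, the stretch from 16 to 23 Mb was as dense as the distal one, at 36.6 per window.

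Counted in single libraries, CLAMP lists held 148, 40 and 1037 members under GFP RNAi (replicates 1, 2 and 4), 227 and 842 under GAF RNAi and 20 and 19 under CLAMP RNAi. The CLAMP RNAi lists had the fewest members, and their counts did not overlap those of the other conditions. They were also the shortest CLAMP lists, with 749 and 430 calls on the 6 arms against 2178 to 10984. As a share of a list's weak calls on the 6 arms, members were 5.95% and 5.37% under CLAMP RNAi. In the other CLAMP lists this share was 5.66% to 19.7%, so the shares did overlap. GAF lists held 467, 85 and 16 members under GFP RNAi, 71 and 188 under GAF RNAi and 20, 35 and 57 under CLAMP RNAi. These groups overlapped. MSL3 lists held 1830, 1012, 118 and 2341 members under GFP RNAi, 2307, 1492 and 1410 under GAF RNAi and 214, 16 and 789 under CLAMP RNAi. The MSL3 groups overlapped as well, since the lowest GFP RNAi library had fewer members than 2 of the CLAMP RNAi libraries.

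None of the 6 RNAi comparisons of member numbers passed an exact two-sided permutation test over libraries. The mean log2 number of members in CLAMP lists was 3.17 lower after CLAMP RNAi than after GFP RNAi (4.36 ± 0.05, SD, n = 2, against 7.53 ± 2.35, n = 3; exact p = 0.2, adjusted over 6 p = 0.686, smallest possible p 0.1). In MSL3 lists it was 2.57 lower after CLAMP RNAi (7.15 ± 2.82, n = 3, against 9.73 ± 1.96, n = 4; exact permutation p = 0.229, adjusted p = 0.686). In GAF lists it was 1.32 lower after CLAMP RNAi (exact p = 0.5, adjusted p = 0.75). After GAF RNAi the differences were 1.24 in CLAMP lists, 0.40 in GAF lists and 1.00 in MSL3 lists, all upward, with exact p of 0.5, 0.9 and 0.629. Over all conditions the lists differed in length, from 430 to 10984 calls on the 6 arms for CLAMP, 2676 to 29233 for GAF and 103 to 33316 for MSL3, and read depth is unknown. The part of list length in these member counts was not tested.

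As a share of a library's own weak calls on 3L, the distal segment held more than its 28.5% of length in 24 of the 25 lists. In CLAMP lists the shares were 42.4%, 28.6% and 56.0% under GFP RNAi, 38.2% and 74.1% under GAF RNAi, and 31.3% and 41.3% under CLAMP RNAi. In GAF lists they were 38.2%, 49.1% and 24.2%, then 37.4% and 38.5%, then 31.3%, 32.1% and 46%. GAF in GFP RNAi replicate 3, with 16 of 66 weak calls, was the list below the length share. In MSL3 lists they were 37.0%, 53.7%, 77.1% and 34.0% under GFP RNAi, 32%, 30.3% and 39.3% under GAF RNAi and 75.9%, 94.1% and 36.4% under CLAMP RNAi. CLAMP in GFP RNAi replicate 2 was level with the length share, at 28.57% against 28.53%. The rule used position and q, which also make up these shares, so they are a description and were not tested against the length share. Their exact Clopper-Pearson 95% intervals cover counting error only, and neighbouring calls are not independent.

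**Figure D2:**
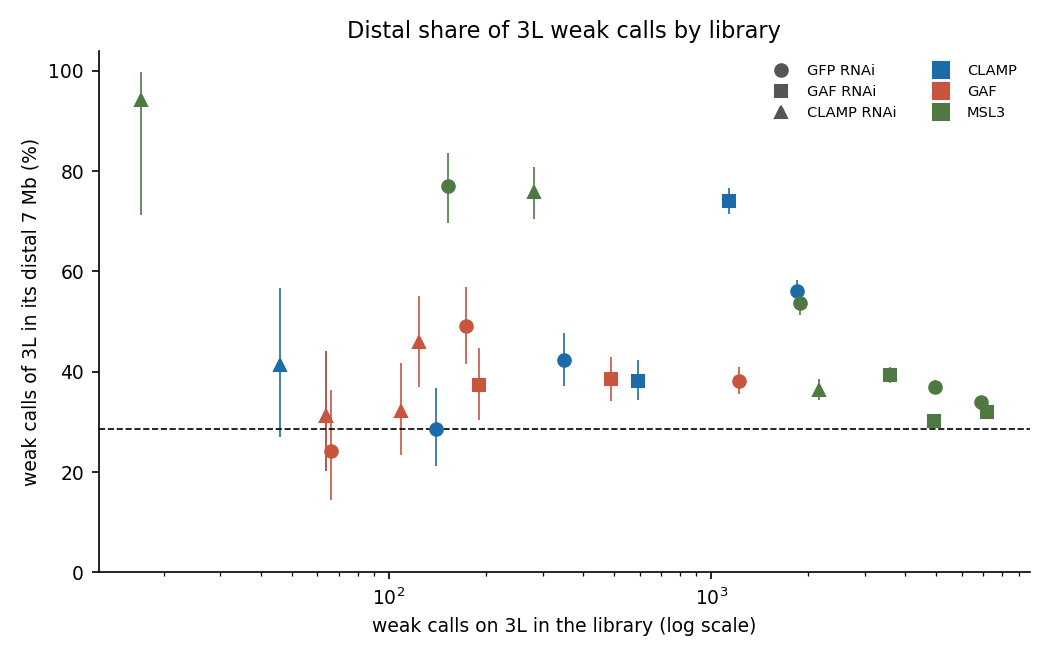
Share of a library's 3L weak calls that lie in the distal 7 Mb (y axis, %) against its number of 3L weak calls (x axis, log scale), 1 point per library with exact 95% intervals, colours for antibodies and shapes for RNAi. The dashed line is the segment's 28.5% of the arm's length; MSL3 lists with under 1000 calls stand highest, between 75.9% and 94.1%.

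The 3 shortest MSL3 lists had the highest distal shares. They held 103, 668 and 984 calls on the 6 arms, and 94.1%, 77.1% and 75.9% of their 3L weak calls were distal. The list of 10572 calls had 53.7%, and the 6 longer ones, with 12136 to 33316 calls, had 30.3% to 39.3%. Among these 10 lists the short ones were thus concentrated in the segment, and the long ones were spread over the arm. The lists of 103 and 984 calls were from CLAMP RNAi and that of 668 from GFP RNAi. The 94.1% is 16 of 17 weak calls. The parts of list length and RNAi in these shares were not tested. In CLAMP lists no such order was seen: the 3 shortest lists had 41.3%, 31.3% and 28.6%, and the longest had 56.0%.

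No difference of the distal share from GFP RNAi, or between antibodies under GFP RNAi, passed its test. GAF RNAi and CLAMP RNAi were not tested against each other. In CLAMP lists it was 56.2% ± 25.4 (SD, n = 2) after GAF RNAi and 36.3% ± 7.11 (n = 2) after CLAMP RNAi, against 42.3% ± 13.7 (n = 3) after GFP RNAi (exact permutation p = 0.5 and 0.7). In GAF lists the 3 means were 37.9% ± 0.82, 36.4% ± 8.26 and 37.2% ± 12.5, with differences from GFP RNAi of 0.74 and −0.76 percentage points (exact p = 0.9 and 1). In MSL3 lists the mean was 33.9% ± 4.78 (n = 3) after GAF RNAi and 68.8% ± 29.5 (n = 3) after CLAMP RNAi, against 50.5% ± 19.8 (n = 4) after GFP RNAi (exact p = 0.257 and 0.343). Adjusted over the 6 comparisons, each p was 1. Under GFP RNAi, the means of CLAMP, GAF and MSL3 lists also overlapped in their libraries (differences of 5.13, −8.12 and −13.2 percentage points for CLAMP minus GAF, CLAMP minus MSL3 and GAF minus MSL3, each with an exact adjusted p of 0.7 over 3). These designs could not have gone below an exact p of 0.1 with 3 libraries against 2 or 3, or 0.0286 with 4 against 3.

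Window by window, MSL3 shares differed with whether lists were averaged or their calls pooled. The window from 0.5 to 1 Mb held 4.06% of a library's 3L weak calls on average under GFP RNAi, 2.24% under GAF RNAi and 15.4% under CLAMP RNAi, and the window from 3 to 3.5 Mb held 3.06%, 2.24% and 10.5%. One of the CLAMP RNAi lists has only 17 weak calls on 3L. With the calls of a condition pooled, the window from 0.5 to 1 Mb held 2.46%, 2.11% and 2.39%, and that from 3 to 3.5 Mb held 2.34%, 2.16% and 2.48%. In the window from 6.5 to 7 Mb the pooled shares were 1.41%, 1.93% and 0.69%. No test was made by window.

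MSL3 members were wider than weak MSL3 calls elsewhere on the arm in each of the 10 lists. The broad regions of MSL3 lists had median widths of 302 to 981 bp among members and 215 to 750 bp on the rest of 3L. The gap was widest under GAF RNAi replicate 2, with 981 against 657 bp, and smallest under GFP RNAi replicate 1, with 533 against 477 bp. The difference of median log2 width was 0.30 ± 0.14 (SD, n = 9 lists with at least 10 weak calls on either side), which is a ratio of 1.23. All 9 lists were positive (exact sign-flip permutation test over libraries, two-sided p = 0.00391, the smallest possible, adjusted over 3 p = 0.0117). The 4 GFP RNAi libraries alone gave 0.22, with an exact p of 0.125, the smallest that 4 can give.

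**Figure D3:**
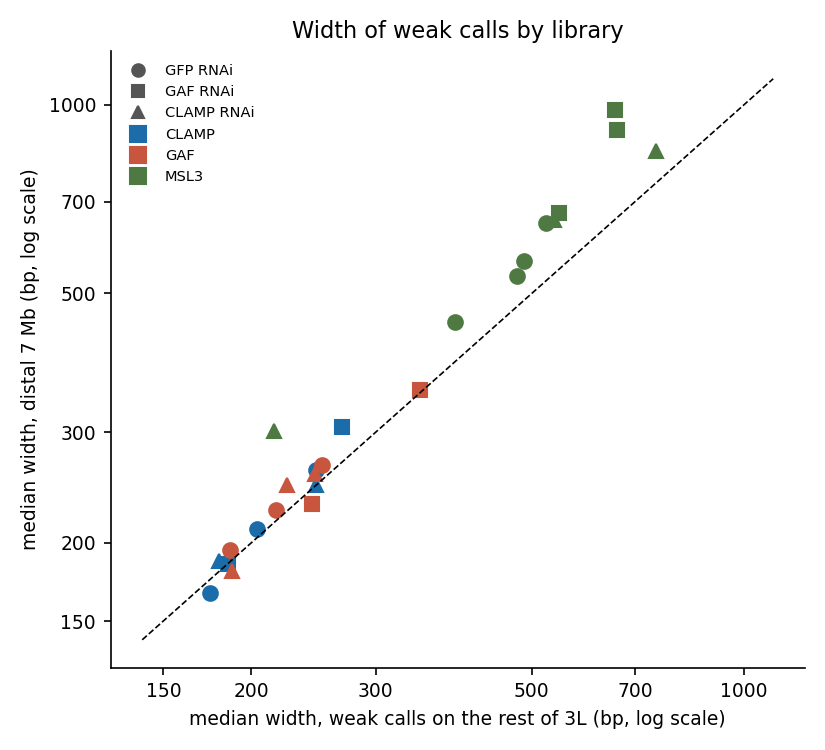
Median width of a library's weak calls in the distal 7 Mb (y axis, bp) against that on the rest of 3L (x axis, bp), both on log scales, 1 point per library, colours for antibodies and shapes for RNAi. All 10 MSL3 points lie above the dashed line of equal width, while CLAMP and GAF points lie on either side of it.

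For CLAMP and GAF members the difference in median width from other weak calls was small and did not pass the test. Median widths of CLAMP members were 167 to 306 bp and those of weak CLAMP calls on the rest of 3L 175 to 269 bp. The mean log2 difference was 0.04 ± 0.08 (SD, n = 7, 4 lists positive; exact sign-flip permutation p = 0.25, adjusted p = 0.25). In GAF lists the medians were 180 to 351 bp and 187 to 348 bp, with a mean log2 difference of 0.03 ± 0.07 (n = 8, 6 lists positive; exact p = 0.25, adjusted p = 0.25). With the mean in place of the median log2 width, the GAF difference was 0.09 (exact sign-flip permutation p = 0.00781, the smallest that 8 lists allow).

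By width and number together, MSL3 members covered much of the segment. A single MSL3 list covered from 0.08% of the segment's bases (CLAMP RNAi replicate 2) to 34.5% (GAF RNAi replicate 2), with a median of 15.9%. CLAMP lists covered 0.05% to 4.68% and GAF lists 0.06% to 2.00%. All 25 lists together covered 75.8% of the segment's bases, against 51.5% of the rest of the arm. A random position in the segment was therefore more often under a weak call than not, which bears on each overlap given here.

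The fold enrichments of members, as the authors' caller gave them, were low and slightly lower than those of other weak calls. The median fold of a list's members was 1.55 to 2.77 in CLAMP lists, 1.39 to 2.48 in GAF lists and 1.31 to 1.89 in MSL3 lists. It was below that of the weak calls on the rest of 3L in 6 of 7 CLAMP, 8 of 8 GAF and 8 of 10 MSL3 lists. The highest fold of any member was 4.11, in CLAMP RNAi replicate 2 of CLAMP. A −log10 q of 0 was listed for 20.3% to 68.4% of a CLAMP list's members, 0% to 55.3% of a GAF list's and 0.60% to 100% of an MSL3 list's. Since fold, p and q are linked and q chose the members, these values carry no test. They may not be the same measure in broad MSL3 regions as in narrow peaks.

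Strong calls, those with a −log10 q of at least 1.301, were not used by the rule, so their density was tested. In CLAMP lists the density of strong calls in the segment was 0.94 to 1.50 times that of the rest of 3L. The ratio was above 1 in 5 of the 7 lists. With 0.5 added to each count the list of 3 and 8 strong calls, at 0.94, also became positive, and the mean log2 ratio was 0.25 ± 0.25 (SD, n = 7), with an exact sign-flip permutation p of 0.0313 and an adjusted p of 0.0625, so it did not pass after adjustment over 2. The 2 highest ratios, 1.50 and 1.44, belonged to the lists with the most members. With the boundary at 6.5 Mb the mean log2 ratio was 0.13 (exact p = 0.344).

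In GAF lists 6 libraries had fewer strong calls per Mb in the segment than on the rest of the arm, at 0.81 to 0.89 times. The 2 longest lists had more, 1.67 times in GFP RNAi replicate 1 (1981 strong calls distal and 2963 on the rest) and 1.71 times in GAF RNAi replicate 2 (1423 and 2087). The mean log2 ratio over the 8 lists was 0.02 ± 0.46 (exact sign-flip permutation p = 0.891). MSL3 lists had 72 strong calls on 3L in all, of which 61 were distal. Of these, 49 distal and 8 other strong calls came from GAF RNAi replicate 2, the only MSL3 list with the 10 strong calls on 3L set as a minimum, so no test was made. The window from 0.5 to 1 Mb held 24 of the 61.

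How close members lay to their own library's strong calls differed between lists. In the longest GAF list, GFP RNAi replicate 1, the median distance from a member to the nearest strong call was 1.10 kb, and 45.0% of members were within 1 kb, against 28.8% on the rest of 3L. In 5 of the 8 GAF lists, however, members lay farther from a strong call than other weak calls of 3L did, as in GFP RNAi replicate 2, with medians of 16.0 and 6.36 kb. In CLAMP lists members were the closer in 5 of 7. In GFP RNAi replicate 4 of CLAMP the median distance was 8 kb and 6.75% of members were within 1 kb. The segment held 1981 strong calls in the longest GAF list and 206 in this CLAMP list.

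Weak calls of different antibodies often met in the segment, and MSL3 lists took part in most of these overlaps. On average 77.6% ± 16.2 (SD, n = 7 lists) of a CLAMP list's members shared at least 1 bp with a weak MSL3 call of some library, and 81.1% ± 18.4 (n = 8) of a GAF list's members did. The weak MSL3 calls covered 74.2% of the segment's bases. On the rest of 3L the corresponding means were 69.2% ± 19.2 and 70.5% ± 20, where weak MSL3 calls covered 50.5% of bases. Covered bases are a low reference for such overlaps, because a call that spans many bases meets another region more often than 1 base does.

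Taken from the MSL3 side, overlaps in the segment were also higher than on the rest of the arm. Of an MSL3 list's members, 39.9% ± 8.63 (SD, n = 10) overlapped a weak CLAMP call, against 20.7% ± 16.7 on the rest of 3L. Weak CLAMP calls covered 10.1% of the segment and 2.65% of the rest, so coverage differed more than overlap did. For weak GAF calls the values were 20% ± 6.37 and 12.5% ± 7.06, at 4.01% and 2.38% of bases. Strong GAF calls met 57.1% ± 12.9 of an MSL3 list's members and covered 17.1% of the segment. On the rest of 3L strong GAF calls met 52.7% ± 21.6 of weak MSL3 calls and covered 10.2%. Strong CLAMP calls met 9.35% ± 4.07 of MSL3 members, at 3.60% of bases.

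Between libraries of the same antibody, the share of members that recurred followed how much of the segment the antibody's lists covered. In MSL3 lists 96.6% ± 4.46 (SD, n = 10) of members overlapped a weak call of another MSL3 library, at 71.8% of bases. In CLAMP lists the share was 29.3% ± 14.6 (n = 7) at 8.74% of bases, and in GAF lists 25% ± 17.1 (n = 8) at 3.53%. On the rest of 3L the shares were 91.3% ± 10.7, 17.9% ± 6.52 and 30.4% ± 18.6, at 47.9%, 2.29% and 2.1% of bases, so GAF recurrence was not higher in the segment. By condition, 90.9% ± 5.4 of an MSL3 list's members met a weak MSL3 call of another GAF RNAi library (57.0% of bases), 79.7% ± 12.3 one of another GFP RNAi library (42.6%) and 31.7% ± 10.6 one of another CLAMP RNAi library (13.7%). The order of the conditions was the order of their coverage.

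When weak calls of all libraries that shared bases were merged, the segment held 2188 merged regions and the rest of 3L 7535. Those in the segment contained 6.76 calls each and those on the rest 3.17. All 3 antibodies were present in 332 of the distal merged regions (15.2%) and in 271 of the others (3.60%). CLAMP and MSL3 without GAF were present in 426 distal ones, GAF and MSL3 without CLAMP in 220, and CLAMP and GAF without MSL3 in 13. All 3 RNAi conditions were present in 27.3% of the distal merged regions and in 13.3% of the others. At least 10 libraries were present in 156 (7.13%) and 62 (0.823%). A single library accounted for 31.6% and 43.9%. Merged regions chain neighbouring calls into longer ones where coverage is high, and distal ones were wider, with a median of 1098 against 660 bp.

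The merged regions found in most libraries had 13 to 15 libraries each and were chains of many calls. 3L:2895589-2926703 had weak calls in 15 lists (CLAMP in 3, GAF in 4 and MSL3 in 8) and was 31115 bp long with 85 calls. 3L:4550790-4562336 was called in 15 lists too (CLAMP in 5, GAF in 3 and MSL3 in 7), over 11547 bp. In 8 libraries it also held a strong call. The shortest of the 10, 3L:866461-870560, had 13 libraries, of which 10 were all the MSL3 lists. Its 16 calls had folds of 1.17 to 2.57 with a median of 1.72. Each of the 10 held all 3 antibodies and all 3 RNAi conditions. No gene is named for them, because no dm3 annotation was used here.

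Between single libraries of CLAMP or GAF and of MSL3, the median overlap was higher where both came from the same RNAi and carried the same replicate number. A CLAMP library's members overlapped the weak calls of the MSL3 library of its own RNAi and number in 52.0%, 0% and 45.4% of cases under GFP RNAi (replicates 1, 2 and 4), 38.3% and 65.8% under GAF RNAi and 20% and 0% under CLAMP RNAi. These MSL3 libraries covered 18.7%, 13.1%, 26.1%, 30.4%, 34.5%, 2.70% and 0.08% of the segment. The overlap exceeded coverage in 5 of the 7 pairs, and in 28 of the 63 other pairs of a CLAMP with an MSL3 library. The exceptions were replicate 2 under GFP RNAi, where 0 of 40 members overlapped, and replicate 2 under CLAMP RNAi.

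GAF members gave the same picture. With the MSL3 library of the same RNAi and number, the overlaps were 34.0%, 52.9% and 0% under GFP RNAi, 57.7% and 60.6% under GAF RNAi and 15%, 2.86% and 66.7% under CLAMP RNAi. They exceeded coverage in 7 of 8 pairs, against 37 of 72 other pairs. The median was 43.5%, where the matched MSL3 libraries covered a median of 12.9% of bases. For GAF and MSL3 libraries of the same RNAi but another number the medians were 7.02% and 13.1%. On the rest of 3L the medians were 30.6% at 7.66% of bases for matched pairs. The median ratio of overlap to coverage there was 2.81 for matched pairs and 1.27 for the same RNAi with another number, against 2.98 and 1.06 in the segment. The labels do not say what libraries of the same number have in common, and pairs that use the same library are not independent, so these counts are given with no test.

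**Figure D4:**
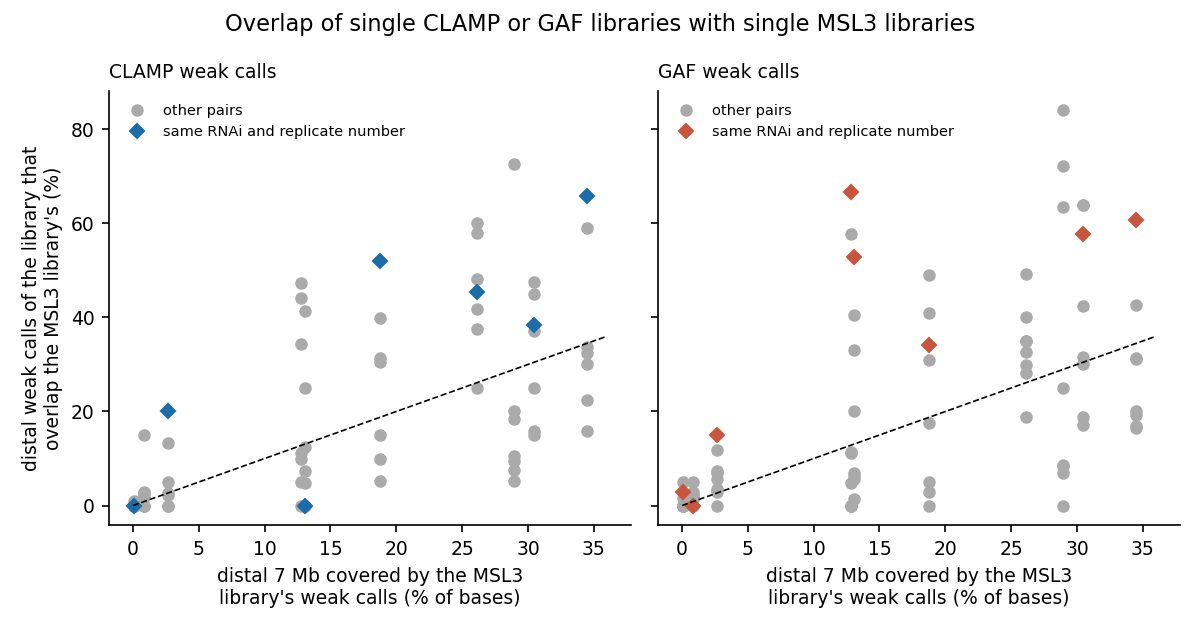
Share of a single CLAMP (left) or GAF (right) library's members that overlap weak calls of a single MSL3 library (y axis, %), against the share of the segment's bases which that MSL3 library's weak calls cover (x axis, %). Coloured diamonds are pairs of the same RNAi and replicate number, grey points all other pairs, and the dashed line marks equality; 5 of 7 CLAMP and 7 of 8 GAF diamonds lie above it.

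The local background that the caller set against each peak was higher in the segment than on the rest of the arm. It is not listed, but in narrow peak lists it was worked out from the listed fold and p, on the assumption that the fold is the summit's height plus 1 over the background plus 1 and that p is the Poisson tail of that height. In 2 of the 15 lists, GAF under GFP RNAi replicate 1 and CLAMP under GAF RNAi replicate 1, 100% of the calls then gave whole-number heights within 0.02. In the other 13 lists only 10.1% to 15.4% did, so there the background is known only as a range. Counting the 2 lists with whole-number heights, which have no such range, 11 of the 15 lists had a half-width of at most 20% of the background.

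Only calls with a −log10 p below 100 entered the background, so the strongest calls were left out. In GAF under CLAMP RNAi replicate 3, 166 of 195 strong calls entered in the segment and 387 of 564 on the rest of 3L. All entered in CLAMP under GFP RNAi replicate 2 (74 and 177). The part of this limit in the ratios was not tested. At the strong calls that entered, which the rule did not use, the median background of GAF under GFP RNAi replicate 1 was 37.6 reads in the segment and 24.4 on the rest of 3L, with 27.9 on 2L and 22.8 on X. For CLAMP under GAF RNAi replicate 1 it was 27.0 in the segment, 16.5 on the rest, 17.8 on 2L and 14.3 on X. The ratio of segment to rest was 1.16 to 2.05 in the 6 CLAMP lists used, with a mean log2 ratio of 0.56 ± 0.34 (SD), and all 6 were above 1 (exact sign-flip permutation p = 0.0313, the smallest possible, adjusted over 2 p = 0.0625). In the 5 GAF lists used it was 1.48 to 2.07, with a mean log2 ratio of 0.77 ± 0.20, and all 5 were above 1 (exact p = 0.0625, also the smallest possible, adjusted p = 0.0625). With these numbers of lists, no outcome could have passed 0.05 after adjustment. With all 8 GAF lists the mean log2 ratio was 0.80 (exact p = 0.00781), but in the 3 lists this adds the half-width of the range was 45.8%, 80.9% and 98.6% of the background.

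**Figure D5:**
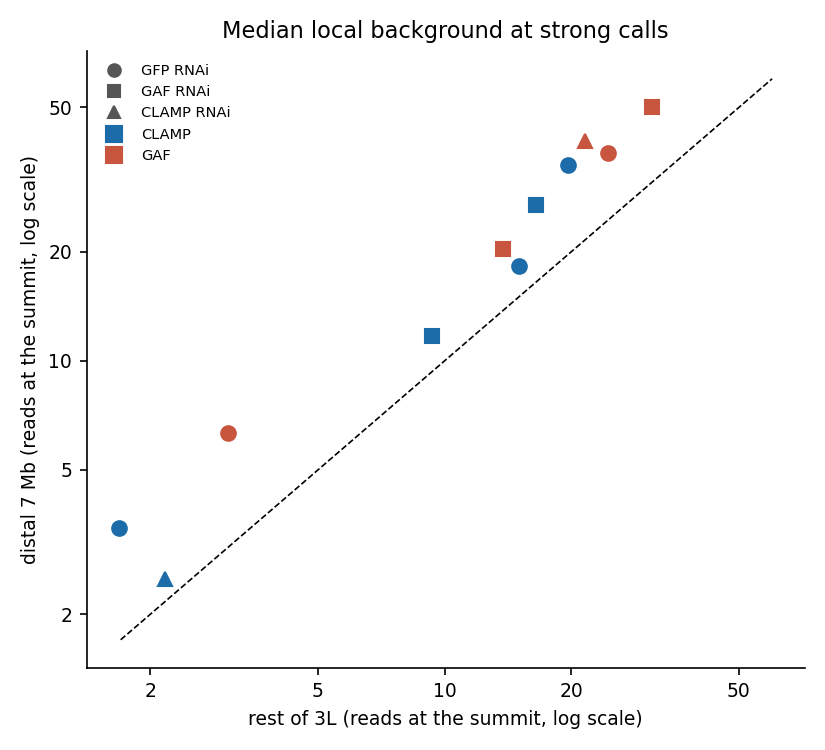
Median local background at strong calls with a −log10 p below 100, in reads at the summit as the listed fold and p imply it, in the distal 7 Mb (y axis) against the rest of 3L (x axis), both on log scales, for the 6 CLAMP and 5 GAF lists whose range was narrow enough. All 11 points lie above the dashed line of equality.

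The course of the background along the arm differed between the 2 lists with whole-number heights. In GAF under GFP RNAi replicate 1, the windows of 0.5 Mb up to 6.5 Mb had medians of 30.8 to 68.4 reads, the window from 6.5 to 7 Mb had 21.2, those from 7 to 16 Mb had 20.2 to 26.0 and those from 16 to 23 Mb had 23.8 to 33.4. In CLAMP under GAF RNAi replicate 1 the windows up to 6.5 Mb had 17.3 to 59.1 reads those from 7 to 16 Mb had 14.3 to 19.3 and those from 16 to 23 Mb had 14.3 to 21.6, while the window from 6.5 to 7 Mb had 31.1 over 8 strong calls. In the GAF list the windows up to 6.5 Mb did not overlap those from 7 to 16 Mb but did overlap those from 16 to 23 Mb. Its window from 6.5 to 7 Mb was below all 13 windows before it. In the CLAMP list the windows up to 6.5 Mb overlapped both other stretches, and the window from 6.5 to 7 Mb was above 10 of the 13 windows before it. Around the members themselves the background was 1.04 to 1.44 times that around other weak calls of 3L in the 7 CLAMP lists and 1.08 to 1.60 times in the 8 GAF lists, a description because fold and p go with q. These ranges take in every narrow list, also those with a half-width above 20% of the background. The lowest GAF value, 1.08 under CLAMP RNAi replicate 1, has a half-width of 98.6%, so it is hardly determined. The control that MACS2 was given is not given in the sources used here, so these reads may be of the inputs or of the libraries themselves. Background at strong calls was higher in the segment than on the rest of 3L in the lists used, and so was the density of weak calls summed over the lists of each antibody. The part of background in the number of calls was not tested.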

How the data were processed

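CLAMP, GAF and MSL3 were mapped by ChIP-seq in S2 cells under 3 RNAi conditions, and 25 of 37 samples have a peak list. Reads were processed with Bowtie and MACS2 2.1.1 on build dm3, per the submitters' processing notes. Options, the control and read depth are not given in the sources used here. Regions were called in each library separately, as the deposited lists show. The deposited fold enrichment is a ratio that the authors' caller gave for each region. The deposited −log10 p and −log10 q values are the authors' too, and both grow with depth, so they were used within a list. MSL3 lists hold broad regions, and the other lists hold narrow peaks.

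Members, lists and tests were chosen with earlier results of these data known. Regions whose end was at or below 7 Mb of 3L, with a −log10 q below 1.301, were members, and the other weak calls of 3L were the comparison. A call belongs to the 0.5 Mb window of its end. Shares used libraries with at least 10 weak calls on 3L, and numbers were taken as log2 of the count plus 1. Differences of means between groups of libraries were tested by exact permutation, two-sided, and paired measures (width, strong calls with 0.5 added to each count, background) with exact sign-flip tests over libraries. Adjustment was by Benjamini-Hochberg, over the number of tests named with each p. Overlaps needed 1 bp, or 50% of the shorter region as an alternative. Merged regions were named by a rule: the 10 found in most libraries, with ties by mean within-list rank of −log10 p, then by start.

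The local background, the counts of library pairs with MSL3 and the split of CLAMP lists were added after the data were seen. Overlap counting, tests and background were tested on simulated data. Of all regions, 1.50% lie off the 6 arms and were left out of counts per arm. Regions identical in 2 lists numbered 2 at most, so no list was a copy of another. Each library was counted as a sample of its own, though this check cannot show that libraries are independent. Other alternatives were other limits of q, other boundaries, the rest of 3L without its proximal 2 Mb, the block by replicate number, and each library left out. Python 3.11.15, numpy 2.4.6, scipy 1.17.1, pandas 2.3.3 and matplotlib 3.10.9 were used. Sequences and genes are not given, because no dm3 genome was used.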

Additional observations from a re-analysis of the deposited data

How the results depend on the processing

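None of the 12 RNAi comparisons and 3 antibody comparisons of member share or number passed an unadjusted exact p of 0.05 under any alternative run. Blocking by replicate number turned the sign of 5 of the 15: in percentage points, CLAMP lists after CLAMP RNAi (0.79), GAF lists after GAF RNAi (−5.74), CLAMP minus GAF (−8.2) and CLAMP minus MSL3 (0.77), and the log2 number in GAF lists after GAF RNAi (−0.78). It changed no other call. By the check made, the numbers were not taken to pair the samples, although weak calls of the same RNAi and number overlapped more: same-numbered libraries had correlations of −0.64 to 0.53 in their deviations from group means over 243 windows, and in 0 of 5 comparisons with 3 or more pairs were all over 0.1. The share in GAF lists turned after GAF RNAi with a q above 0.01 (−0.12), and after CLAMP RNAi with the boundary at 6.5 Mb (0.38) or without the proximal 2 Mb (0.70). Leaving out single libraries gave, for shares, −4.12 to 31.8 (CLAMP lists, GAF RNAi), −12.9 to 0.79 (CLAMP lists, CLAMP RNAi), −5.74 to 6.70 (GAF lists, GAF RNAi), −7.25 to 5.20 (GAF lists, CLAMP RNAi), −1.72 to 12 (CLAMP minus GAF), −15 to 0.77 (CLAMP minus MSL3), −19.2 to −4.36 (GAF minus MSL3), −22.1 to −7.70 (MSL3 lists, GAF RNAi) and 5.71 to 34.5 (MSL3 lists, CLAMP RNAi). For log2 numbers after GAF RNAi it gave 0.16 to 2.49 in CLAMP, −0.78 to 1.61 in GAF and 0.05 to 1.49 in MSL3 lists. After CLAMP RNAi it gave −4.26 to −1.93, −2.51 to −0.12 and −3.81 to −1.04. The MSL3 width difference kept its sign under every alternative and passed under all except GFP RNAi libraries alone (0.22). The GAF width difference passed with mean log2 width (0.085).

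The CLAMP excess of strong calls did not pass with a strong limit of q at 0.01 (0.21) or a −log10 q of 5 (0.15), with boundaries at 6.5 Mb (0.13) or 7.5 Mb (0.24), or without the proximal 2 Mb (0.12), and single libraries left out gave 0.20 to 0.30. In GAF lists its log2 ratio was −0.094, −0.057 and −0.085 at a −log10 q of 5, a boundary of 7.5 Mb and without the proximal 2 Mb, and −0.088 to 0.066 with libraries left out; it was negative without either of the 2 longest lists. The background ratio of CLAMP lists was 0.47 to 0.63 (log2) with each library left out, where 5 lists cannot reach an exact p of 0.05, and that of all GAF lists was 0.80. MSL3 members overlapping a weak call of another antibody went from 50.9% to 41.1% when 50% of the shorter region had to be shared. The causes of these changes were not tested. Read depth is unknown, so the limit it sets on each list could not be given.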
